A study of Homo sapiens with 4 samples.

Results

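Replication-dependent histone genes encode the linker histone H1 and the core histones H2A, H2B, H3 and H4 that are made in S phase to package new DNA. They were taken as the genes whose platform symbol is H1-1 to H1-6 or has the form H2AC, H2BC, H3C or H4C with a number, where a transcript cluster on the array carried that symbol alone. This gave 50 genes of the 14232 measured, each with 1 transcript cluster: 6 of H1, 11 of H2A, 13 of H2B, 9 of H3 and 11 of H4. Another 5 clusters annotated to several genes including a histone of this kind were not used. The samples were K562 cells and cells labelled HepG2, made to carry, by stable transfection, a plasmid with siRNA against ADAR1 (ADARkd) or with scrambled siRNA (SCR). K562 is a chronic myeloid leukaemia line and HepG2 a hepatocellular carcinoma line. ADAR1, encoded by ADAR, edits double-stranded RNA by turning adenosine into inosine, and the study asked how it acts on splicing. Each of the 4 groups had a single array, with no replicate, and the SCR cells of both lines carry a plasmid too.

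These genes lie in clusters and have no introns, and most of their mRNAs end in a conserved stem-loop rather than a poly(A) tail. The stem-loop binding protein SLBP and the U7 small nuclear ribonucleoprotein direct the cut at that end, and NPAT drives transcription of the clusters in S phase. Each core histone is encoded by many genes whose proteins are identical or nearly so. The coding sequences are correspondingly alike, so the probes of 1 gene may also bind transcripts of another; this was not tested, and every value for a single gene carries that uncertainty.

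ADAR itself had a log2 level of 6.78 in ADARkd against 7.99 in SCR in K562, which leaves 43.2% of the SCR intensity. On the arrays labelled HepG2 it had 7.27 in ADARkd against 8.96 in SCR, which leaves 31.0%. Of 13 measured hepatocyte markers 2 lay above the filter level on the arrays labelled HepG2, CPS1 and FOXA1, while ALB had 2.97 in ADARkd and 3.04 in SCR there. The label of these arrays is therefore kept as a label only, and they are called labelled HepG2. In K562, 7 of 8 measured erythroid markers lay above it. The filter level is the median of all genes' mean log2 intensity in a line, 5.28 in K562 and 5.31 on the arrays labelled HepG2. Below it, background can set much of a value; the signal over background was not analysed here. Each array is a bulk sample, in which fewer cells of a kind, or fewer cells in S phase, cannot be told apart from less RNA per cell.

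Of the 50 histone genes, 34 lay above the filter level in K562 and 36 on the arrays labelled HepG2, 32 in both and 12 in neither. The 12 included all 3 testis genes of the set. H1-6, the testis linker histone, had log2 levels between 3.28 and 4.14 over the 4 arrays. The testis pair H2AC1 and H2BC1 had levels between 3.61 and 3.93 and between 1.99 and 2.75. The other 9 were H2BC3, H2BC10, H3C3, H3C6, H3C11, H4C6, H4C7, H4C13 and H4C16, the last of which is the sole member on chromosome 12. All 4 members on chromosome 1, H2AC21, H2AC25, H2BC21 and H2BC26, were above the level in both lines, and the remaining 45 members lie on chromosome 6.

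**Figure D1:**
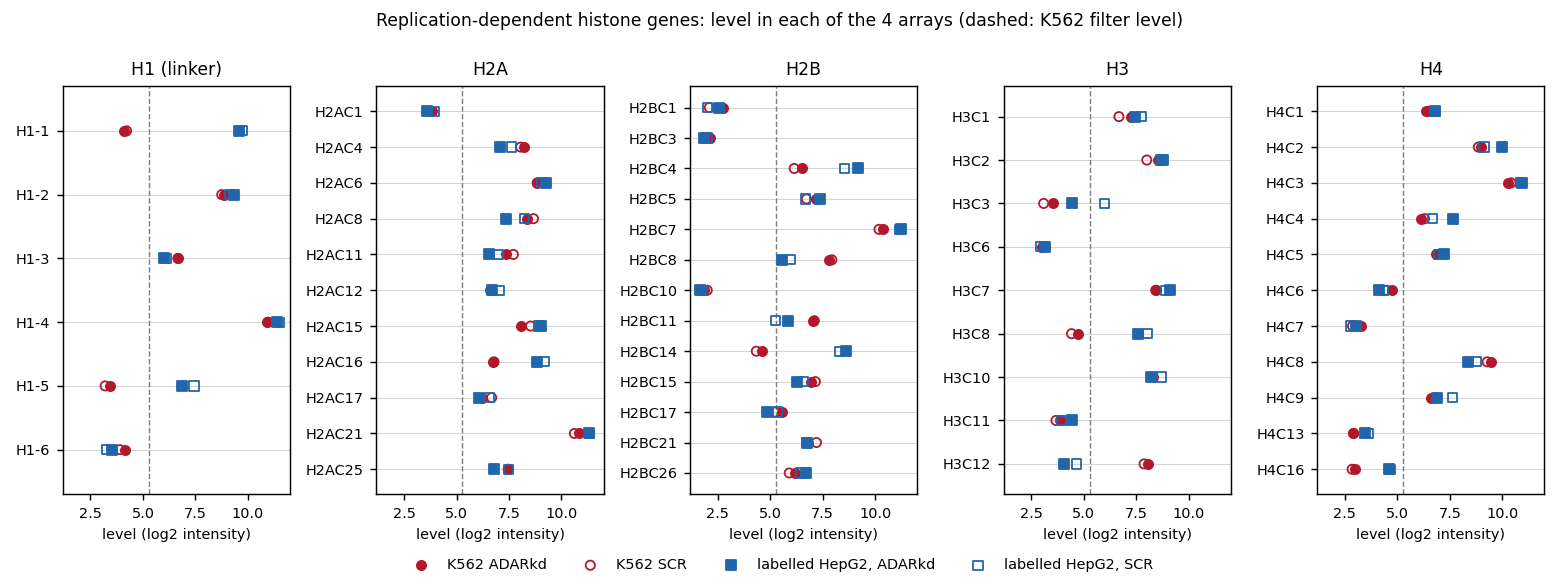
Log2 intensity (horizontal axis) of each of the 50 histone genes in the 4 arrays, in a panel for each class of histone; circles are K562 and squares the arrays labelled HepG2, filled for ADARkd and open for SCR, and the dashed line is the K562 filter level of 5.28. For most genes the 4 symbols lie close together, while H1-1, H1-5, H2BC14, H3C8 and H3C12 split by line.

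The lines were compared first, to describe which histone genes each carries at RNA level. For most members K562 and the arrays labelled HepG2 were within 2-fold of each other, and a small number were far apart. H2BC4 and H2AC16 were lower in K562, by 5.77-fold and 4.73-fold, and H2BC8 and H2BC11 higher, by 4.33-fold and 2.87-fold. H1-1, H1-5, H2BC14 and H3C8 were lower in K562 and H3C12 higher, with the dim line under its filter level in each. The size of these 5 differences therefore depends on the floor, and no fold is given. Their log2 differences in the paragraphs below carry the same limit, which limma's SE does not cover. With 16 added to each intensity before log2 they became -4.62 for H1-1, -2.61 for H1-5, -3.27 for H2BC14, -2.59 for H3C8 and 2.85 for H3C12, and all 5 still passed. By limma over all genes, with line and arm as terms, these 9 of 38 members above the filter level in either line passed at both thresholds, a Benjamini-Hochberg adjusted p below 0.05 and a fold of 2 or more (23.7%). Of all 8028 genes tested 25.1% passed, so the share of histone genes is near that of genes in general. By direction 3 members were higher in K562 and 6 lower, against 10.3% and 14.7% of all genes. The fit leaves 1 residual degree of freedom and no replicates, so its p-values rest largely on the spread borrowed from other genes and are approximate. Of the 9, H1-1, H1-5, H2BC14 and H3C8 entered the test through the arrays labelled HepG2 alone and H3C12 through K562 alone, which fixes their direction; of the 32 members above the level in both lines 4 passed (12.5%), against 14.1% of all such genes, 2 of them higher in K562 (5.85% of all) and 2 lower (8.25% of all).

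Linker histones bind the DNA between nucleosomes, and somatic cells carry several subtypes. H1-1 had log2 levels of 4.10 and 4.22 in the K562 ADARkd and SCR arrays, against 9.58 and 9.76 in the ADARkd and SCR arrays labelled HepG2. The lines did not overlap, and both K562 values were under the filter level. The difference, K562 minus labelled HepG2, was -5.51 ± 0.20 in log2 units (limma's SE, from 2 arrays in each line; adjusted p = 6.1e-06). H1-5 had 3.43 and 3.20 in the K562 ADARkd and SCR arrays, against 6.88 and 7.43 in the ADARkd and SCR arrays labelled HepG2, so the lines were again apart, with a difference of -3.84 ± 0.25 (limma adjusted p = 3.6e-05). The other somatic subtypes were present in both. H1-4 had 10.92 and 10.97 in the K562 ADARkd and SCR arrays and 11.39 and 11.51 in those labelled HepG2, a difference of -0.51 ± 0.13 that is under the 2-fold bound (limma adjusted p = 0.018). H1-2 had 8.86 and 8.76 in the K562 ADARkd and SCR arrays and 9.33 and 9.13 in those labelled HepG2 (-0.42 ± 0.18, limma adjusted p = 0.11). H1-3 had 6.69 and 6.67 in the K562 ADARkd and SCR arrays and 6.003 and 6.12 in those labelled HepG2, a difference of 0.62 ± 0.20 that is also under the 2-fold bound (limma adjusted p = 0.039).

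H2A and H2B pair as a dimer in the nucleosome. Of 10 H2A genes tested, 1 passed: H2AC16 had 6.76 and 6.78 in the K562 ADARkd and SCR arrays, against 8.82 and 9.20 in the ADARkd and SCR arrays labelled HepG2. All 4 values were above the filter level, and the difference was -2.24 ± 0.21 (limma adjusted p = 0.00020). The other 9 H2A genes lay between -0.66 (H2AC15) and 0.78 (H2AC4), all within 2-fold. H2AC21, on chromosome 1, had 10.83 and 10.62 in the K562 ADARkd and SCR arrays and 11.31 and 11.33 in those labelled HepG2 (-0.60 ± 0.14). H2AC4 had 8.20 and 8.06 in the K562 ADARkd and SCR arrays and 7.09 and 7.60 in those labelled HepG2.

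Of 10 H2B genes tested, 4 passed, 2 in each direction. H2BC14 had 4.60 and 4.34 in the K562 ADARkd and SCR arrays and 8.60 and 8.32 in those labelled HepG2, a difference of -3.99 ± 0.19 (limma adjusted p = 1.1e-05). H2BC4 had 6.53 and 6.14 in the K562 ADARkd and SCR arrays and 9.18 and 8.55 in those labelled HepG2, a difference of -2.53 ± 0.21 (limma adjusted p = 9.9e-05). Both genes were thus low in both K562 arrays, H2BC4 above the filter level and H2BC14 under it. H2BC8 ran the other way, with 7.81 and 7.94 in the K562 ADARkd and SCR arrays and 5.57 and 5.95 in those labelled HepG2 (2.12 ± 0.20, limma adjusted p = 0.00021). So did H2BC11, with 7.05 and 7.10 in the K562 ADARkd and SCR arrays and 5.84 and 5.26 in those labelled HepG2 (1.52 ± 0.23, limma adjusted p = 0.0018). H2BC7, with 10.39 and 10.19 in the K562 ADARkd and SCR arrays and 11.23 and 11.17 in those labelled HepG2, lay just inside 2-fold (-0.91 ± 0.14, limma adjusted p = 0.0022). H2BC5 did not separate the lines, with 7.17 and 6.73 in the K562 ADARkd and SCR arrays and 7.35 and 6.69 in those labelled HepG2.

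H3 and H4 form the core tetramer. Of 6 H3 genes tested, 2 passed, in opposite directions. H3C12 had 8.04 and 7.87 in the K562 ADARkd and SCR arrays, against 4.05 and 4.66 in the ADARkd and SCR arrays labelled HepG2, a difference of 3.60 ± 0.24 (limma adjusted p = 4.0e-05). H3C8 had 4.71 and 4.42 in the K562 ADARkd and SCR arrays, against 7.56 and 8.03 in those labelled HepG2, a difference of -3.23 ± 0.24 (limma adjusted p = 6.3e-05). In each the dim line was under its filter level and the lines did not overlap. H3C1, H3C2, H3C7 and H3C10 lay between -0.64 and -0.18. H3C7, for example, had 8.43 in both K562 arrays, and 9.09 and 8.92 in the ADARkd and SCR arrays labelled HepG2. None of the 7 H4 genes tested passed. H4C3 had 10.26 and 10.41 in the K562 ADARkd and SCR arrays and 10.93 and 10.87 in those labelled HepG2 (-0.56 ± 0.15). The farthest were H4C4, at -0.94 ± 0.29, and H4C8, at 0.79 ± 0.22, both under the 2-fold bound (limma adjusted p = 0.038 and 0.023). Outside the test, H3C3 (-1.92) and H4C16 (-1.71) were also lower in K562 than on the arrays labelled HepG2, under the filter level in both lines.

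Of the 38 members tested, 9 (23.7%) were at least 2-fold apart, in 1 direction, within the ADARkd arrays and within the SCR arrays. Of them 3 were higher in K562 and 6 lower. Of all genes tested 20.2% were that far apart (7.97% higher in K562 and 12.2% lower), so the shares are near each other. The 9 are the genes that passed, which were chosen on the same 4 arrays, so this is no separate check of them. H2BC14 differed by -4.00 within ADARkd arrays and -3.98 within SCR arrays, and H1-1 by -5.48 and -5.54. The arms were less alike for H1-5, with -3.45 within ADARkd arrays and -4.23 within SCR arrays, and for H3C12, with 3.99 and 3.21.

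Promoters of some of the genes that separate the lines are shown here, and that of H1-4 beside them. The letters are from the RefSeq promoter table (GRCh38.p14), which covers 250 bases before to 50 after each start and held 45 of the 50 members. H2AC16, H2BC11 and H3C8 also passed and are in that table but are not printed, and H3C12 is not in it. H1-1 (chr6:26017738-26018037, minus strand) and H1-5 (chr6:27867539-27867838, minus strand) were low in K562, and H1-4 (chr6:26156079-26156378, plus strand) was high in both lines. H2BC14 (chr6:27814772-27815071, plus strand) and H2BC4 (chr6:26123877-26124176, minus strand) were lower in K562, and H2BC8 (chr6:26216639-26216938, minus strand) higher. Capitals mark matches, on either strand, to any of 4 motifs. The TATA box was searched as the letters TATAAA and the CCAAT box by the letters of its name. The core of the octamer, known from H2B promoters, was searched as TTTGCAT. The H1 box, known from H1 promoters, was searched as AAACACA.
H1-1: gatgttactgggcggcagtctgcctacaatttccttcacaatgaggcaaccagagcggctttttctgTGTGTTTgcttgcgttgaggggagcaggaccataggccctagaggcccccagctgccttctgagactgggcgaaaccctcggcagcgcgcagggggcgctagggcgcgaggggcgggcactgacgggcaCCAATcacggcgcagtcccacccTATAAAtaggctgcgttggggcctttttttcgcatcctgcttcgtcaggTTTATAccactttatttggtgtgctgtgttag
H1-5: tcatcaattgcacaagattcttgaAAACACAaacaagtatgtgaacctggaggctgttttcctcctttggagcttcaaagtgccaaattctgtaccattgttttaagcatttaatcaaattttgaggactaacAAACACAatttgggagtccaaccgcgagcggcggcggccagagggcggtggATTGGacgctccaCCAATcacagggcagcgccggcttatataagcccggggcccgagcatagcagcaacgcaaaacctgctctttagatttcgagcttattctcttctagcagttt
H1-4: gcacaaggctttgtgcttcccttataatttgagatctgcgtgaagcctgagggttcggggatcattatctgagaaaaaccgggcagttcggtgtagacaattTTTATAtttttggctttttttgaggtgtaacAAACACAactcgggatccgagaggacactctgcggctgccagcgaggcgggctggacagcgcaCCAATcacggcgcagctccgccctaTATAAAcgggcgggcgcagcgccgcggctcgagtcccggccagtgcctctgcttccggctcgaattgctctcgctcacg
H2BC14: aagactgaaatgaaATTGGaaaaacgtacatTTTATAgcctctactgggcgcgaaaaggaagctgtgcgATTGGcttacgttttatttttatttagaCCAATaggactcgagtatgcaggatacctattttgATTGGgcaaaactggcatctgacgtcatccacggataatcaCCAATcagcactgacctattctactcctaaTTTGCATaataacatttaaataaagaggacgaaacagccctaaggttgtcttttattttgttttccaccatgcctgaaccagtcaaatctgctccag
H2BC4: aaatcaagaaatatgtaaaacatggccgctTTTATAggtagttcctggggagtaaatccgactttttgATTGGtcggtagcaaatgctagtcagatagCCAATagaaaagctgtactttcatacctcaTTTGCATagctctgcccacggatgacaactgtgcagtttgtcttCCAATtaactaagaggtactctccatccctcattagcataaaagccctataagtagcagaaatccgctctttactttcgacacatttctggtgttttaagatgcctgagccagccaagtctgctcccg
H2BC8: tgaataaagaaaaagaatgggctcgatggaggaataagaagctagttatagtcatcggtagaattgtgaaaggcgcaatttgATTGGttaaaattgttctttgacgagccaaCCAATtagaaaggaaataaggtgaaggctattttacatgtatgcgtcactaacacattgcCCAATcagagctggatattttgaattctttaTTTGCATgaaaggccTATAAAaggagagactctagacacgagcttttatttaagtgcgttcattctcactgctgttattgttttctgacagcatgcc

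The H1 box and the octamer core differed by class of histone. The H1 box was in all 6 H1 promoters and in 0 of the other members, against 5.76% of all 27305 promoters in the table. The octamer core was in 8 of 10 H2A and 10 of 13 H2B promoters and in 0 of the H1, H3 and H4 promoters, against 4.51% of all. The H2A and H2B counts are not independent. Where an H2A and an H2B gene lie head to head, their windows share DNA, so 1 octamer core can count for both. In each of the 7 such pairs described below, both genes had it or neither did. A CCAAT box was in 86.7% of member promoters, including every H1, H2A, H2B and H3 promoter and 3 of 9 of H4, against 35.7% of all. TATAAA was in 64.4% of members and 12% of all promoters. Matches of different motifs overlapped in 0 member promoters. Among the printed promoters, H1-1, low in K562, has 2 TATAAA, 1 CCAAT and 1 H1 box, as does H1-4, which was high in both lines, while H1-5, also low in K562, has 0 TATAAA, 2 CCAAT and 2 H1 boxes. H2BC4 and H2BC8, which differed in opposite directions, have equal counts of 1 TATAAA, 3 CCAAT and 1 octamer core, and H2BC14 has 1, 5 and 1. These counts take no account of strand or place. The H1 box of H1-1 reads in reverse and that of H1-4 forward. The reverse TATAAA follows the forward one in H1-1 and precedes it in H1-4. The TATAAA of H2BC8 reads forward and follows the octamer core. In H2BC4 and H2BC14 it reads in reverse, near the upstream end of the window. The octamer core was in 2 of 2 promoters of genes higher in K562, 3 of 6 of those lower, and 8 of 25 of those above the filter level in both lines that did not pass, groups that differ in their classes of histone. A match is a run of letters, not a site shown to be bound.

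Along chromosome 6 most genes that passed stood between neighbours that did not. H1-1 has H3C1 and H4C1 on its side away from the testis pair, at -0.64 and -0.37. H2BC8 (2.12) stands beside H2AC8 (0.72) and H2BC4 (-2.53) beside H2AC6 (-0.33). H2AC16 and H1-5, both lower in K562, are neighbours in this set, at -2.24 and -3.84, and H3C12 follows 3 places after H1-5, at 3.60, with H3C11 and H4C13 between them under the filter level in both lines.

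**Figure D2:**
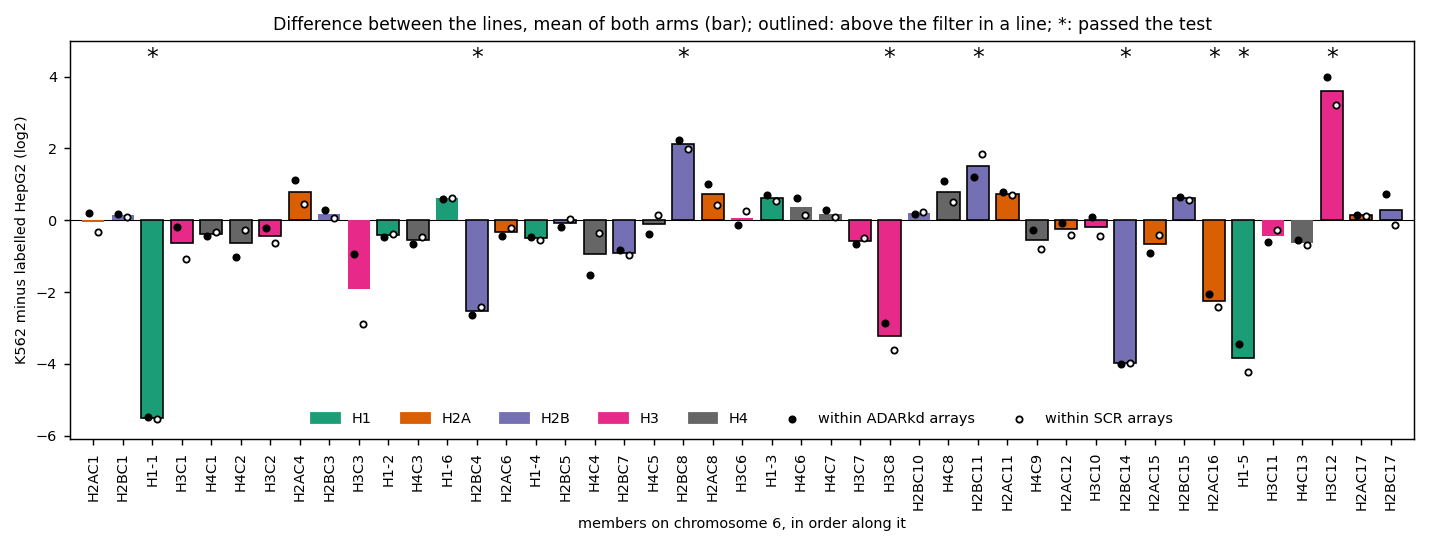
K562 minus labelled HepG2 on the log2 scale (vertical axis) for the 45 members on chromosome 6, in their order along it; bars are means of both arms, coloured by class, filled and open points are the ADARkd and SCR arrays, outlines mark genes above the filter level in either line and asterisks those that passed the test. The 9 marked bars, from -5.51 for H1-1 to 3.60 for H3C12, are spread along the row, and H2AC16 and H1-5 stand side by side.

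An H2A and an H2B gene often lie head to head and share the DNA between their starts. Among the members 7 such pairs were found in the promoter table, with starts 194 to 248 bases apart. H2AC8 and H2BC8 were both higher in K562, at 0.72 and 2.12, and H2AC11 and H2BC11 too, at 0.74 and 1.52, although in each pair the H2B gene alone passed the test. In the pair of H2AC6 and H2BC4, the H2B gene differed by -2.53 and the H2A gene, with 8.82 and 8.84 in the K562 ADARkd and SCR arrays and 9.27 and 9.05 in those labelled HepG2, by -0.33 ± 0.19 (limma adjusted p = 0.21). Of the 5 pairs above the filter level in both lines, 3 had the same sign in both genes. The 2 others were H2AC15 (-0.66) with H2BC15 (0.61), and H2AC25 (0.34) with H2BC26 (-0.55).

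The knockdown was then compared within each line. On the arrays labelled HepG2, H4C4, H4C2, H2BC5 and H2BC4 were at least 1.5-fold higher in ADARkd than in SCR, and H2AC8, H4C9 and H2AC25 at least 1.5-fold lower. That is 7 of 36 members above the filter level (19.4%), against 18.1% of all 7116 genes, and 0 members were 2-fold apart. By direction 11.1% of members were higher and 8.33% lower, against 12.4% and 5.73% of all genes. The split depends on scaling. After quantile normalization 2 of 36 members were higher and 7 of 36 lower, against 8.46% and 7.57% of all genes. After loess 2 of 36 were higher and 6 of 36 lower, against 8.92% and 7.63%. In both of these settings the members' share lower was above that of all genes, and their share higher was below it. At the deposited scaling the share of histone genes past this fold, either way, is near that of genes in general. With 1 array per arm there is no replicate check and no p-value. The median of members was -0.07, against 0.11 for all genes above the filter level there; quantile normalization and loess bring the median of all genes to 0.01 and the members' median to -0.11 and -0.17.

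Among H4 genes, H4C4 had a log2 level of 7.63 in ADARkd against 6.65 in SCR on the arrays labelled HepG2, a difference of 0.97. H4C2 had 9.99 in ADARkd against 9.13 in SCR (0.86), while H4C9 had 6.88 in ADARkd against 7.61 in SCR (-0.73). H4 genes thus lay on both sides, and H4C3, with 10.93 in ADARkd and 10.87 in SCR, differed by 0.06. In K562 H4C4 differed by -0.19, H4C2 by 0.11 and H4C9 by -0.18.

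The H2A and H2B genes lay on different sides on the arrays labelled HepG2. Of 10 H2A genes above the filter level 8 were lower in ADARkd, with a median of -0.43, and of 9 H2B genes 7 were higher, with a median of 0.26. Of all 7116 genes above the level there 4336 were higher and 2780 lower. The H2B median depended on the setting, at 0.13 after quantile normalization, 0.06 with no filter (13 genes) and 0.45 over the 4 genes that pass a 75th percentile filter, while that of H2A lay between -0.55 and -0.38. H2AC8 had 7.37 in ADARkd against 8.24 in SCR (-0.87), and H2AC25, a chromosome 1 member, had 6.77 in ADARkd against 7.47 in SCR (-0.70). The H2A genes above 0 were H2AC6 (0.22) and H2AC15 (0.09). H2BC5 had 7.35 in ADARkd against 6.69 in SCR (0.66), and H2BC4 had 9.18 in ADARkd against 8.55 in SCR (0.63), just past 1.5-fold. After quantile normalization both were short of it, at 0.54 for H2BC5 and 0.51 for H2BC4. H2BC11, at 0.58, lay just short of it, and H2BC8 (-0.38) and H2BC15 (-0.29) were the 2 H2B genes below 0. After loess the counts were 9 of 10 H2A genes lower and 5 of 9 H2B genes higher, and after quantile normalization 8 of 10 and 6 of 9. These classes were set beside each other after their values were seen, and the difference between them was not tested.

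H1 genes had a median of -0.13 over 5 members on the arrays labelled HepG2. H1-5, at 6.88 in ADARkd against 7.43 in SCR (-0.55), was the lowest and H1-2 (0.20) the highest, while H1-1 differed by -0.18. H3 genes had a median of -0.31 over 5 members, from -0.51 for H3C10 to 0.17 for H3C7. The largest difference of any member was that of H3C3, with 4.46 in ADARkd against 5.98 in SCR (-1.52). Its mean lay under the filter level of 5.31, with the SCR array above it and the ADARkd array below, so it was not counted.

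In K562 0 of 34 members above the filter level were 1.5-fold apart, against 1.03% of all genes there (0.267% higher and 0.759% lower). After quantile normalization or loess 2 members were, and the share of all genes in K562 under those settings was not counted. The median of members was -0.01 and that of all genes -0.07. H3C1 came closest, with 7.25 in ADARkd against 6.67 in SCR (0.58), followed by H3C2, with 8.53 in ADARkd against 8.002 in SCR (0.53), and H2BC5, with 7.17 in ADARkd against 6.73 in SCR (0.44). H2BC4 differed by 0.39. At the other end were H2AC17, with 6.22 in ADARkd against 6.67 in SCR (-0.45), H2AC15 (-0.44), H2BC21 (-0.40) and H2AC11 (-0.36). H4C8, with 9.46 in ADARkd and 9.28 in SCR, was the highest of the H4 genes (0.18) and H4C5 (-0.29) the lowest. The class medians were 0.03 for H1 (3 genes), -0.04 for H2A (10), 0.20 for H2B (9), 0.17 for H3 (5) and -0.15 for H4 (7). With the filter at the 75th percentile the H2B median was -0.09, and after quantile normalization the H2A median was 0.04, so neither sign held under each setting. Across members the SD of the differences was 0.27 in K562, against 0.19 over all genes, and 0.45 on the arrays labelled HepG2, against 0.47.

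**Figure D3:**
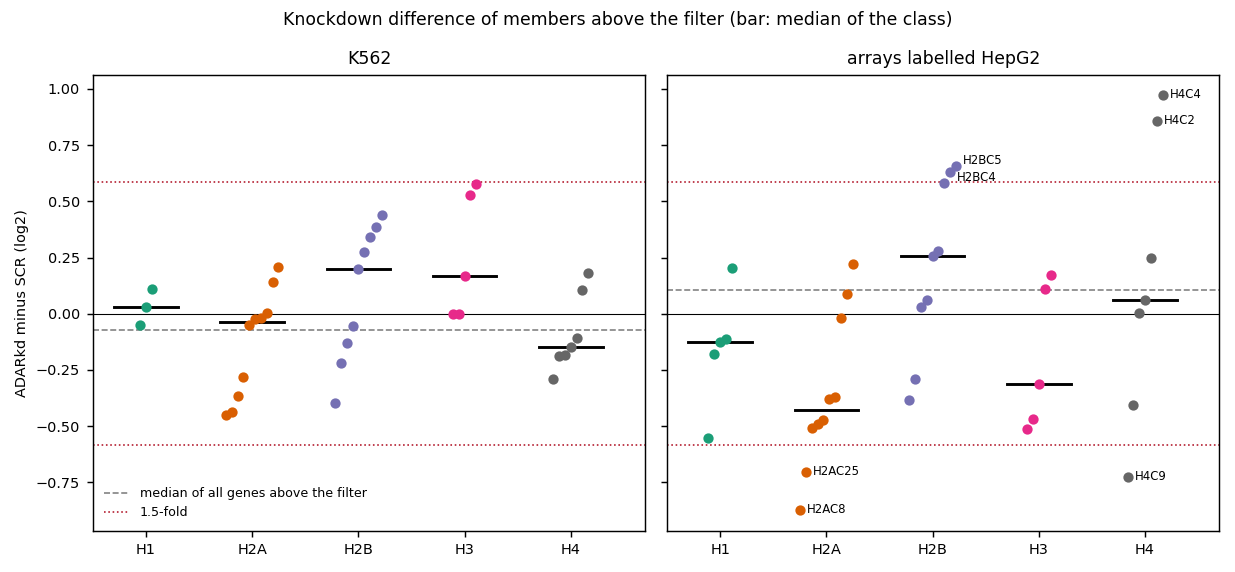
ADARkd minus SCR on the log2 scale (vertical axis) for the members above the filter level in K562 (left) and on the arrays labelled HepG2 (right), by class; points are genes, bars class medians, the dashed line the median of all genes and the dotted lines 1.5-fold. On the arrays labelled HepG2 the H2A median is -0.43 and the H2B median 0.26, and in K562 no point passes 1.5-fold.

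Within the head-to-head pairs the H2B gene had the higher knockdown difference in 4 of 5 pairs above the filter level on the arrays labelled HepG2 and in 6 of 6 in K562. H2BC11 differed by 0.58 on the arrays labelled HepG2 and its partner H2AC11 by -0.47, and in K562 by -0.06 and -0.36. H2BC26 differed by 0.26 and its partner H2AC25 by -0.70 on the arrays labelled HepG2, and by 0.28 and 0.00 in K562. The exception on the arrays labelled HepG2 was H2BC15, at -0.29, with H2AC15 at 0.09. These counts use the same H2A and H2B values as the class medians above, so they are not separate from them, and they have no test.

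**Figure D4:**
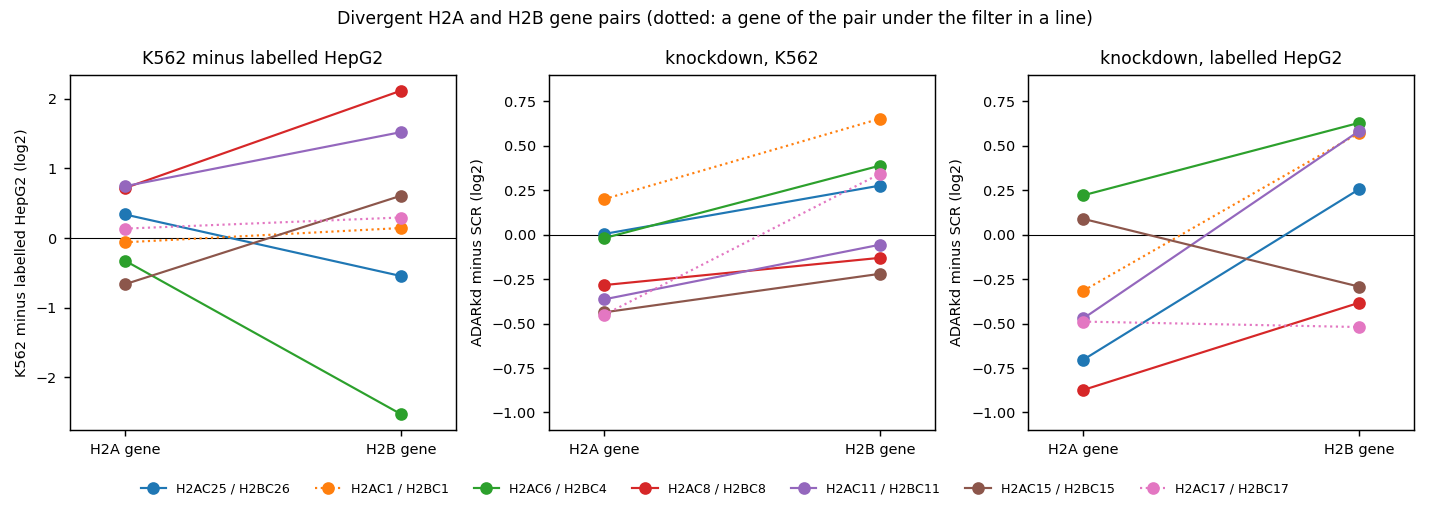
Differences on the log2 scale (vertical axes) of the 7 head-to-head pairs, with a line from the H2A gene to the H2B gene of each; the left panel is K562 minus labelled HepG2, the others ADARkd minus SCR in K562 and on the arrays labelled HepG2, and dotted lines are pairs with a gene under the filter level in a line. In K562 every line slopes upward, from H2A to H2B, and on the arrays labelled HepG2 the pairs of H2AC15 and H2AC17 slope downward.

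The effect shared by both lines was tested with the same limma model on genes above the filter level in both. Of 32 members 0 passed at an adjusted p under 0.05, and of all 6204 genes 0 passed (0%), ADAR included. Before adjustment 4 members were under a limma p of 0.05 (12.5%), 2 higher and 2 lower, against 2.89% of all genes (0.919% higher and 1.97% lower). H2BC5 and H2BC4 were higher in ADARkd in each line, with shared differences of 0.55 ± 0.21 and 0.51 ± 0.21 (SE). H2AC8 and H2AC17 were lower in ADARkd in each line, with shared differences of -0.58 ± 0.23 and -0.47 ± 0.19. The limma adjusted p of each was 0.9996, so none was called. In both lines at once 0 members were 1.5-fold apart in 1 direction, against 0.0967% of all genes (0.0484% higher and 0.0484% lower). Of the 32 members 18 had the same sign in both lines and 14 opposite signs.

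Genes that make, process and carry histone mRNA and protein were set beside the histone genes. Of 17 measured genes of histone transcription and 3′ end processing, all above the filter level in both lines, 4 were at least 1.5-fold higher in ADARkd on the arrays labelled HepG2 and 0 lower, against 12.4% and 5.73% of all genes, and 0 in either direction in K562. In K562 the list's median was -0.05, against -0.07 for all genes. On the arrays labelled HepG2 it was 0.12, close to the 0.11 of all genes. LSM10, a ring protein specific to the U7 ribonucleoprotein, had 7.31 in ADARkd against 6.18 in SCR there (1.13), while its partner LSM11 had 6.18 in ADARkd against 6.39 in SCR (-0.21). CSTF2, a subunit of the cleavage stimulation factor, differed by 0.82, the cap-complex partner SRRT by 0.69 and the exonuclease ERI1, which trims the histone stem-loop end, by 0.69. SLBP had 7.48 in ADARkd and 7.37 in SCR on those arrays (0.12) and 8.11 in ADARkd and 8.23 in SCR in K562 (-0.12). Between the lines 0 of the 17 passed, against 14.1% of all genes above the filter level in both lines. SLBP was at 0.75 ± 0.21 and UPF1 at 0.87 ± 0.20, both under the 2-fold bound.

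Of 25 measured S phase and proliferation genes 4 were at least 1.5-fold higher in ADARkd on the arrays labelled HepG2 and 0 lower, against 12.4% and 5.73% of all genes, and 0 were past it in K562. In K562 the list's median was -0.06, against -0.07 for all genes. On the arrays labelled HepG2 it was 0.15, against 0.11 for all genes. The 4 genes higher on those arrays were CCNE1, a cyclin of S phase entry, with 7.36 in ADARkd against 6.19 in SCR (1.17), UHRF1 (0.69), CDK1 (0.63) and CDC6 (0.62). The log2 of the list's summed intensity was 13.8 in ADARkd and 13.6 in SCR there, and 13.6 in ADARkd and 13.7 in SCR in K562. Between the lines, CDC45 (1.78) and CCNE1 (1.52) were higher in K562, and RRM1, a subunit of ribonucleotide reductase, was lower in K562 (-2.45). That is 2 higher and 1 lower of 25, all above the filter level in both lines. Of all such genes 5.85% passed as higher in K562 and 8.25% as lower. Of 22 histone chaperones and importers, HAT1 (0.72) alone was at least 1.5-fold higher in ADARkd on the arrays labelled HepG2 and NAP1L1 (-0.74) alone lower. Of all genes there 12.4% were higher and 5.73% lower. Between the lines UBN1 (1.11) alone of the 22 passed, higher in K562. Of the 22, 21 were above the filter level in both lines, and 14.1% of all such genes passed. Among 12 measured replacement and other variant histones, which are made outside S phase as well, 0 were 1.5-fold apart under knockdown in either line. Above the filter level lay 7 on the arrays labelled HepG2, where 18.1% of all genes were that far apart, and 6 in K562, where 1.03% were. H2AZ1 had 10.54 and 10.53 in the K562 ADARkd and SCR arrays and 10.84 and 10.59 in those labelled HepG2, and H2AX, used in DNA repair, 8.10 and 8.07 in the K562 ADARkd and SCR arrays and 7.43 and 7.44 in those labelled HepG2. Of the 7 above the filter level in either line, H1-10 (-1.35) and H2AJ (-2.02) passed as lower in K562 and 0 as higher. Of all genes tested 14.7% passed as lower and 10.3% as higher. H2AJ entered the test through the arrays labelled HepG2 alone, which fixes its direction, and its size depends on the floor. Of 7 fibroblast and stromal markers above the filter level on the arrays labelled HepG2, 5 were 1.5-fold lower and 2 higher in ADARkd. Of all genes there 5.73% were lower and 12.4% higher. The 2 higher were LUM (0.78) and DCN (0.64), and the lowest were COL3A1 (-2.42), LOX (-2.18) and FN1 (-1.80). The log2 of the summed intensity of all 11 measured markers was 10.8 in both ADARkd and SCR there. That sum is weighted to the brightest genes, LUM and DCN, so it can hide differences of dimmer ones. The part of these markers in the histone differences was not tested.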

How the data were processed

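Total RNA from each of 4 samples was biotin-labelled with a whole-transcript kit and put on 1 array, per the labels' protocols. The deposited intensity per transcript cluster is linear. The submitters' processing notes name RMA and hg18 without a version, and other steps are not given in the sources used here. Of 17881 clusters 14432 had 1 gene symbol, 2408 several and 1041 none in the platform annotation; single symbols alone were used, and the brightest cluster per gene. By Entrez number 50 of 50 members were found in the RefSeq gene table (GRCh38.p14), with 0 symbols changed. That table and its promoters are of a later build than the arrays'. The values were taken to log2 with no offset. Genes were kept in a line at or above the median of gene means.

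Within a line the result is ADARkd minus SCR, counted at 1.5-fold. Tests used limma 3.58.1 in R 4.3.3 (lmFit, then eBayes allowing the spread to trend with intensity; two-sided; adjusted by Benjamini-Hochberg at 0.05) with line and arm as terms over all 4 arrays; K562 minus labelled HepG2 also needed 2-fold. The fits were tested on simulated data. The number of arrays limits the precision. Nothing says that the arrays of a line came from separate cultures, so their spread may be technical. The alternatives were quantile normalization, loess, log2(value + 16), 2 other filters, the mean of all clusters, other folds, no trend and single arms. Every member could be named; for the other gene lists the named genes were among the 3 highest and 3 lowest per comparison, with S phase and U7 genes outside that chosen after their values were seen. The members and lists were chosen with earlier results of these data known. Figures were drawn with matplotlib 3.10.9.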

Additional observations from a re-analysis of the deposited data

Results flagged for a closer look

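The knockdown difference had opposite signs in the 2 lines for 14 of the 32 members above the filter level in both, and this difference between the lines was not tested, since there is 1 array per group. With the arrays labelled HepG2 given before K562, H4C4 had 0.97 and -0.19, H2AC25 -0.70 and 0.0037, H2BC11 0.58 and -0.06, H2AC4 -0.51 and 0.14, H4C8 -0.41 and 0.18, and H3C1 -0.31 and 0.58. H4C5 had 0.25 and -0.29, H2AC6 0.22 and -0.02, H1-3 -0.11 and 0.03, H2AC15 0.0886 and -0.44, H4C3 0.0592 and -0.15, H2BC21 0.0302 and -0.40, H2AC21 -0.0172 and 0.21, and H4C1 0.0050 and -0.11.

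A transcript cluster annotated to several H2B genes was left out of the set because its symbol is not single. Its log2 level was 9.39 in ADARkd against 7.96 in SCR on the arrays labelled HepG2, a difference of 1.43, and 10.41 in ADARkd against 10.28 in SCR in K562 (0.13). No member with a single symbol and above the filter level had so large a knockdown difference.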

How the results depend on the processing

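The 9 genes that passed between the lines kept their direction and their call in 63 of 63 values. The settings were quantile normalization, loess, log2(value + 16), no filter, the mean of all clusters, the stricter filter and no intensity trend. All reuse the arrays on which the genes were chosen, so they are no separate check. The filters, the mean of all clusters and the trend setting also leave each difference as it is, so only its adjusted p could move. For H1-1, H1-5, H2BC14, H3C8 and H3C12, each kept in 1 line alone, any setting with the filter also fixes the direction. The count was 22 with no fold bound (9 higher and 13 lower in K562), 14 at 2-fold in ADARkd arrays alone (6 higher, 8 lower), and 4 over genes kept in both lines, a setting chosen after seeing the data. The 7 knockdown calls on the arrays labelled HepG2 fell to 0 at 2-fold. In K562 the count was 2 under each of loess and quantile normalization and 1 without a filter, all higher in ADARkd. The matching shares of all genes in K562 were not counted. The members' median on the arrays labelled HepG2 was -0.17 by loess and 0.0210 under the 75th percentile filter. In K562 loess gave 0.0628, quantile normalization 0.0725 and no filter 0.0413. The shared knockdown count was 0 under every setting run. The cause of these shifts was not tested. The knockdown differences of the 7 called genes and H3C3 moved by over 0.1 in 16 values and by less or not at all in 32. None changed sign. The filters and the mean of all clusters cannot move them, since each member has 1 transcript cluster. All 16 came from quantile normalization, loess or log2(value + 16). The shared knockdown fit already has line as a block; no block by replicate number could be made, since each group has 1 array and the labels give no replicate numbers.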

Other observations

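Of the other 4 clusters annotated to several genes including a replication-dependent histone, 3 had 2 symbols and 1 had 3. The cluster with 3 symbols had 4.80 in ADARkd against 5.44 in SCR on the arrays labelled HepG2 (-0.64), and 6.53 in ADARkd against 6.40 in SCR in K562 (0.13). The remaining 3 differed by -0.21 to 0.12 on the arrays labelled HepG2 and by -0.11 to 0.20 in K562.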
